A study of Mus musculus with 4 samples.

Results

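The MS4A genes examined here were *Ms4a1*, *Ms4a2*, *Ms4a4b*, *Ms4a4c*, *Ms4a6b*, *Ms4a6c* and *Ms4a7*, the members of the family taken here, and every row of the deposited marker tables that named one of them was taken. Group 2 innate lymphoid cells (ILC2s) had been sorted from the liver and lung of wild type BALB/c mice aged 8 weeks, with tissue of 2 to 6 mice pooled per group. The mice had received an intraperitoneal injection of PBS or of 0.5 µg rIL-33 on each of 5 days. The 4 groups (PBS liver, PBS lung, rIL-33 liver and rIL-33 lung) held 1 droplet library each. The gate kept CD127+Thy1+ST2+ cells and removed cells with surface CD3e, TCRb, CD45R, CD11b, Ly6G, Ly6c or TER119. A cell type table compared each of 21 named types with all other sorted cells, and an ILC2 subcluster table compared each of 10 subclusters, numbered from 0, with all other ILC2s. Of the 7 genes, 6 had a row in at least 1 table, among 3488 genes in both tables. They took 26 of 4422 rows in the cell type table and 5 of 3745 rows in the ILC2 subcluster table, and *Ms4a7* had none.

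MS4A genes encode membrane-spanning 4-domain proteins, small membrane proteins, several of which lie beside immune receptors and change how these signal. *Ms4a1* encodes CD20 of B cells, and *Ms4a2* encodes the beta chain of the high affinity IgE receptor of mast cells and basophils. *Ms4a4b* and *Ms4a6b* are known from T cells, where their proteins take part in costimulation, whereas *Ms4a6c* and *Ms4a7* are known from monocytes and macrophages.

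For its gene, each row gave the percentage of cells whose value was above 0, once inside the cluster and once in all other cells of the table, and only genes with a higher average inside the cluster were listed. The 4 libraries were pooled in every value. Neither the effect of rIL-33 nor the difference between the organs was therefore analysed here, no replicate stood behind a value, and no test was made. The tables gave neither numbers of cells nor sequencing depth, so no counting interval was computed, and rounding to 3 decimals is the error given for a single share. The clusters were formed from the expression of the same cells, so each difference between a cluster and the rest is a description. A gene with no row for a cluster was not shown to be absent or unchanged there.

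Shares can be compared within a table only. *Ms4a4b* was found in 87.5% of all sorted cells in the cell type table and in 11.7% of ILC2s in the ILC2 subcluster table. The types named ILC2 and ILC2_2 together made up 45% of sorted cells. If these were the ILC2s of the second table, 11.7% of them positive would allow at most 60.3% of all sorted cells to be positive. *Ms4a6b* differed in the same way, at 82.8% of all sorted cells and 24.3% of ILC2s, where the same reckoning allowed at most 65.9% of sorted cells. Cells with markers of other types had been left out before ILC2s were clustered again, so the match of both sets is an assumption. The values behind the cell type table were not stated, and its shares are given here as shares of values above 0, not of cells with a detected transcript.

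All 7 genes lie in one region of mouse chromosome 19 and are annotated as protein-coding (build GRCm38). In order, *Ms4a1* lies at chr19:11249675-11266241, *Ms4a7* at chr19:11321039-11336146, *Ms4a4c* at chr19:11404770-11427246, *Ms4a4b* at chr19:11443553-11467055, *Ms4a6c* at chr19:11469366-11482192, *Ms4a6b* at chr19:11516512-11531256 and *Ms4a2* at chr19:11615523-11623719. *Ms4a1*, *Ms4a7* and *Ms4a2* are on the minus strand and the other members on the plus strand. The members span 374 kb, and the stretch from *Ms4a4c* to *Ms4a6b* spans 126 kb. *Ms4a4b* and *Ms4a6c* are 2.31 kb apart. The annotation held 19 *Ms4a* genes, of which 13 had no row in either table. The share of all annotated genes with a row was not computed, so nothing about the family is read from this count.

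The 250 bases before the RefSeq start (GRCm38.p6) are shown for the neighbours *Ms4a4c*, *Ms4a4b*, *Ms4a6c* and *Ms4a6b*, whose listings overlapped or differed as described for each gene. They are written 5′ to 3′ on the gene's strand, and capitals mark GGAAGT or its reverse complement ACTTCC, letters that ETS factors of lymphoid and myeloid cells can bind. The windows are chr19:11407411-11407660, chr19:11443308-11443557, chr19:11469118-11469367 and chr19:11518309-11518558, in the order printed, all on the plus strand. For *Ms4a4c* and *Ms4a6b* the RefSeq start used lies inside the gene as placed above, and so do their windows.
Ms4a4c: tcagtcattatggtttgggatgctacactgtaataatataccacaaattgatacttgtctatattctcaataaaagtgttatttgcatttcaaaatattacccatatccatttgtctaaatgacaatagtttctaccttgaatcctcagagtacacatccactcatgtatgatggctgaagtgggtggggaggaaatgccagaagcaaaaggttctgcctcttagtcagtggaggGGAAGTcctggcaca
Ms4a4b: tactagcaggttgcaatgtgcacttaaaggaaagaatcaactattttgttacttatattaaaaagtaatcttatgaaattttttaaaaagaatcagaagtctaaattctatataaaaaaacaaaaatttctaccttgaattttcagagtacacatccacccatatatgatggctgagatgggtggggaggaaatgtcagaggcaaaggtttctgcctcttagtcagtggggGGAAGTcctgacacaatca
Ms4a6c: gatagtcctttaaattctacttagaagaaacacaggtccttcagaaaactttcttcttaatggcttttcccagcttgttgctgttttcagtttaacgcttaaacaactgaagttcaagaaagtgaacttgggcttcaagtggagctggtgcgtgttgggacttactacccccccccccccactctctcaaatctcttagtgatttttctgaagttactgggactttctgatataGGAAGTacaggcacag
Ms4a6b: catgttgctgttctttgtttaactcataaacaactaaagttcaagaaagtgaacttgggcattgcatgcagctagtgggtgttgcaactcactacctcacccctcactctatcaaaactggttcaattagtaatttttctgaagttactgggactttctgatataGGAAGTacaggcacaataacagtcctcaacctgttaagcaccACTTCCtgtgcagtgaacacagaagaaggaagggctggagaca
The first base of GGAAGT lay 15 bases before the start in *Ms4a4c*, 19 in *Ms4a4b* and 16 in *Ms4a6c*. In *Ms4a6b* it lay 85 bases before the start, with ACTTCC from 43 bases before it. The windows of *Ms4a4b* and *Ms4a4c* were 68.8% identical. Those of *Ms4a6b* and *Ms4a6c* were 45.8% identical when aligned from end to end, but shared an exact run of 48 bases that began 118 bases before the start of *Ms4a6b* and 49 before that of *Ms4a6c*. The GGAAGT of both genes lay in this run. Of 32851 RefSeq windows of the same length, 19.7% held GGAAGT on either strand.

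The window of *Ms4a2* (chr19:11623720-11623969, minus strand) is shown because the gene was listed for a single cell type, and its capitals mark AGATAA or its reverse complement TTATCT, letters that GATA factors can bind.
Ms4a2: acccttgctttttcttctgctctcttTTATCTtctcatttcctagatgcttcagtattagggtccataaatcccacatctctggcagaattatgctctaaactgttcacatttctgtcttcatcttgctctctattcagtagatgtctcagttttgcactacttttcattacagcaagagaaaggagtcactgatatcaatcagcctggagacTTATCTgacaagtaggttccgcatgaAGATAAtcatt
It held 3 such matches, beginning 224, 37 and 11 bases before the start, whereas the windows of the other members with an entry held 0. AGATAA was found on either strand in 9.99% of all windows. *Ms4a7* had windows at 2 starts, of which 1 held GGAAGT and the other held the AP-1 letters TGANTCA, found in 6.75% of all windows. The STAT letters TTCNNNGAA, found in 7.02% of all windows, were in none of the members' windows. No match overlapped a match of another motif searched. The set of RefSeq windows used here held 6 of the 7 members and no window for *Ms4a1*. Matches describe letters and are not measured binding sites.

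*Ms4a2* had the largest difference in share of cells among the genes listed for basophils. It was found in 98.2% of basophils and in 4.4% of all other sorted cells, a ratio of 22.3 (22.1 to 22.6 from rounding). The difference of 93.8 percentage points ranked 1 of the 275 genes listed for basophils. Basophils made up 1.07% ± 0.0070 (SE of the fit) of sorted cells, as solved from the shares, and held 19.5% of all cells positive for *Ms4a2*. The type named ILC2 had no row for *Ms4a2*, and its share lay between 0% and 10.1%. The label of the type fitted its markers, since 8 of 8 basophil markers were listed, *Mcpt8*, *Cpa3* and *Prss34* among them.

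Some of the other chains and signalling partners of the IgE receptor were listed beside it. A list of 9 genes held these chains and partners and also *Hdc*, which is neither. Of the 9, 7 had a row for some type and 6 had one for basophils. A row for basophils was held by 16.4% of all genes in the table. *Fcer1a*, the chain that binds IgE, was found in 93.7% of basophils and 43.0% of other cells. *Fcer1g*, the signalling gamma chain, was found in 100% and 63.6%. *Hdc*, which makes histamine, was found in 99.4% and 38.4%. Shares outside basophils were thus higher for both other receptor chains than for *Ms4a2*. The adapter *Lat2* was found in 97.0% of basophils against 37.1%, the kinase *Btk* in 58.8% against 26.6% and the kinase *Lyn* in 56.7% against 37.6%. Of these 6 genes, 4 also had rows for other types. *Fcer1g* was found in 97.0% of ILC1, 99.3% of the type named Macrophage, 99.5% of NK and 100% of ILC1_ILC3, *Lyn* in 82.8% of the type named Macrophage and *Btk* in 73.2% of MMP_LMPP. *Fcer1a* and *Hdc*, like *Ms4a2*, had a row for basophils alone. *Syk* had rows for other types and none for basophils, and *Lat* and *Plcg2* had no row in the cell type table.

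*Ms4a1* was listed for the type named Plasma cell, with 93.5% of its cells against 13.2% of all other sorted cells. This was a ratio of 7.08 and a difference of 80.3 points, which ranked 3 of the 204 genes listed for that type. The type made up 0.542% ± 0.0089 of sorted cells and held 3.71% of the cells positive for *Ms4a1*. In the type named ILC2 the share lay between 0% and 30.4%. Of 8 markers of plasma cells and the B lineage, 7 were listed for the type, and *Jchain*, which plasma cells use, had no row. *Pax5*, which B cells use and plasma cells lose, was listed, as was *Ms4a1*. Of the 7 listed markers, *Mzb1* was found in 91.8% of the type against 18.8% and *Xbp1* in 65.9% against 53.5%.

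Of 9 B cell genes chosen as partners of CD20, 8 had a row for some type and 7 for the type named Plasma cell, while a row for that type was held by 12.2% of all genes. *Cd79a* and *Cd79b*, the signalling chains of the B cell receptor, were found in 100% and 98.8% of its cells, against 27.6% and 28.8% outside. *Cd74*, the invariant chain of MHC class II, was found in 100% against 27.6%. *Cd22*, an inhibitory coreceptor of the B cell receptor, was found in 84.1% against 18.6%. The B lineage factors *Ebf1* and *Pax5* were found in 99.4% and 80.0%, against 23.2% and 6.3%. Several of these genes were also listed for other types. In MMP_LMPP, *Ebf1* was found in 94.3%, *Cd74* in 90.2%, *Cd79a* in 76.4% and *Cd79b* in 68.3%, and in the type named Macrophage *Cd74* was found in 90.2% and *Cd79b* in 55.0%. *Blk* had no row for the type named Plasma cell. It was listed for gdT_TypeIII_ITGAE, at 87.0% against 47.4%, and for gdT_TypeIII_CD163l1, at 90.0% against 47.3%. *Cd79b* was listed for these types too, at 44.6% and 46.1%.

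*Ms4a4b* was listed for 8 cell types, the most of any member, and all were T cells, NK cells or ILC1s. The share was 100% in NK, 99.9% in CD8_Naive, 99.8% in gdT_TypeI, 99.7% in gdT_Naive, 99.5% in CD8_Effector, 99.4% in ILC1, 99.3% in CD4 and 97.1% in Treg. Shares outside these types lay between 85.8% and 87.4%, and the differences between 9.8 and 14.0 points. The shares from NK down to CD4 lay close together, and their order was not tested. Treg stood 2.2 points below CD4. Over all sorted cells the share was 87.5% (SD 0.024 points over the estimates from 8 types). The 8 types held 34.9% of sorted cells, with a mean share of 99.5%, and the 13 types with no row had a mean share of 81.0%. The share in the type named ILC2 lay between 71.4% and 100%.

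*Ms4a6b* was listed for 7 types, of which 6 also listed *Ms4a4b*: CD4, CD8_Effector, CD8_Naive, Treg, gdT_Naive and gdT_TypeI. This was 75% of the types of *Ms4a4b* and 85.7% of those of *Ms4a6b*. The share was 98.2% in CD8_Naive, 95.3% in gdT_Naive, 94.6% in CD8_Effector, 94.2% in CD4, 93.1% in Treg and 92.6% in gdT_TypeI. In gdT_TypeIII_ITGAE, which listed *Ms4a6b* and not *Ms4a4b*, it was 87.8%. Shares outside were 81.5% to 82.8%. CD8_Naive had the highest share and the largest difference, 15.8 points, which ranked 12 of 198 genes. NK and ILC1 listed *Ms4a4b* and not *Ms4a6b*. Over all sorted cells the share of *Ms4a6b* was 82.8% (SD 0.032 points over 7 estimates). Its listing types held 27.7% of sorted cells with a mean share of 93.8%, against a mean of 78.6% in all other types.

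The 6 types that listed both genes also listed T cell receptor genes. *Cd3d*, *Cd3e* and *Cd3g*, subunits of the T cell receptor complex, were each listed for all 6 of them. All 7 T cell markers were listed for CD4, CD8_Effector, CD8_Naive, Treg and gdT_TypeI, and 6 of 7 for gdT_Naive. Some of these rows had a smaller share inside. *Trbc1*, a constant gene of the T cell receptor beta chain, was below in all 6 types, for example at 74.7% of CD4 against 87.6%. *Trac*, that of the alpha chain, was below in gdT_TypeI at 64.8% against 71.9%, and *Cd28* was below in CD8_Effector at 79.8% against 82.2% and in gdT_Naive at 81.9% against 82.2%. Over all types, 11 of 55 rows of T cell markers were below. For NK, 1 of the 7 was listed (*Cd28*), beside 6 of 6 NK and ILC1 markers (*Tbx21* at 51.1% against 51.8%), and for ILC1 none of the T cell markers and 4 of 6 NK and ILC1 markers. T cell receptor genes were also listed for types without *Ms4a4b* or *Ms4a6b*. ILC3 listed 5 of the 7 T cell markers, and gdT_TypeIII_CD163l1 listed *Cd3d*, *Cd3e* and *Cd3g*, at 97.5%, 98.8% and 99.8%. Types with T cell markers were present although the gate had removed cells with surface CD3e or TCRb. Of 9 T cell and naive lymphocyte genes, 7 had a row, in 51 rows over all types, 5 of them with a smaller share inside. In CD8_Naive, where *Ms4a6b* peaked, *Lef1* was found in 95.9% against 68.9%, *Tcf7* in 94.6% against 78.3% and the homing receptor *Ccr7* in 95.9% against 72.0%.

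**Figure D1:**
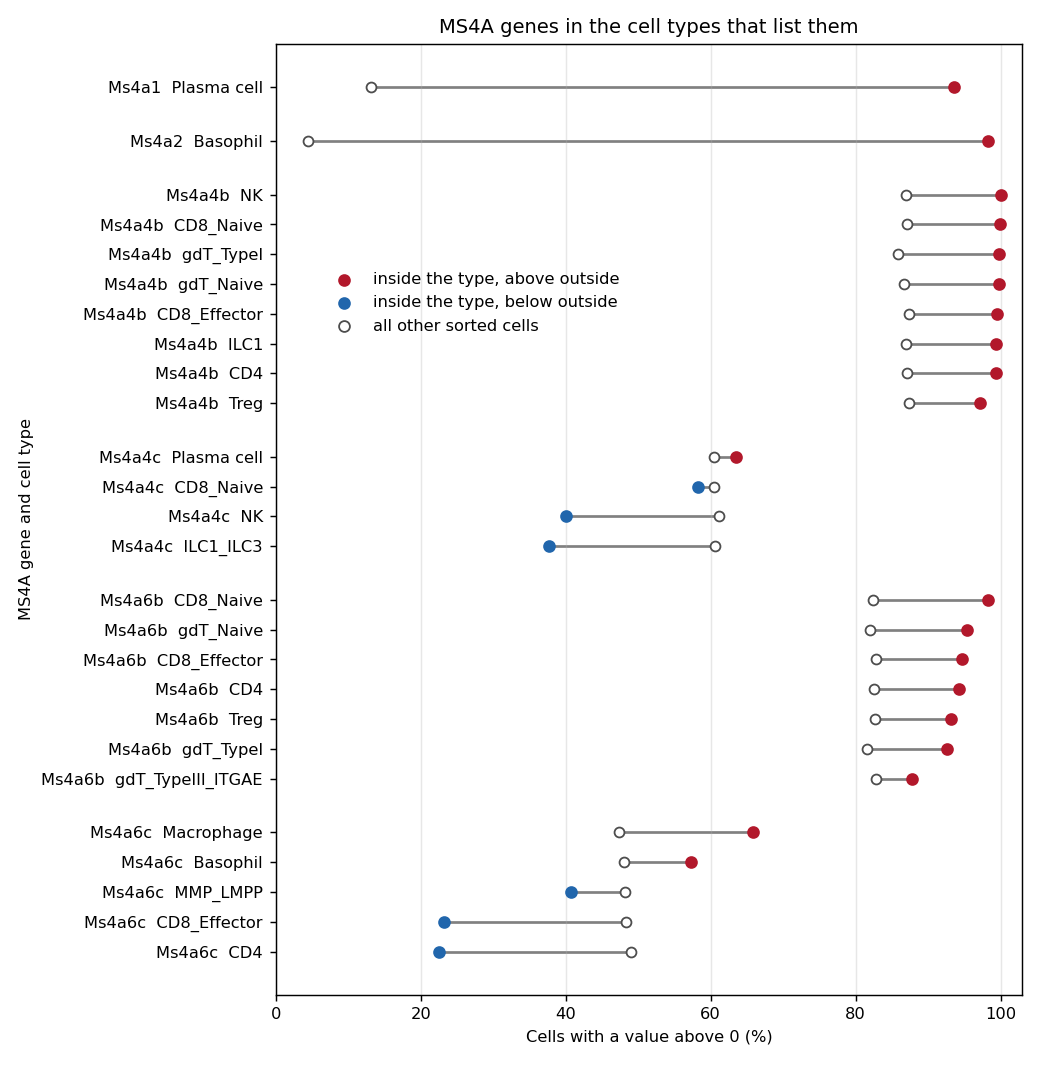
Percentage of cells with a value above 0 for each MS4A gene (x axis) in each cell type that listed it (y axis). Filled points are the type and open points all other sorted cells; *Ms4a4b* and *Ms4a6b* lay above the other cells in all their types, whereas *Ms4a4c* and *Ms4a6c* lay below in 3 types each.

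*Ms4a4c*, the neighbour of *Ms4a4b*, was listed for 4 types: Plasma cell, CD8_Naive, NK and ILC1_ILC3. It was found in 63.5% of the type named Plasma cell against 60.4% outside. In the remaining types the share was smaller inside than outside, at 58.3% against 60.5% in CD8_Naive, 40.1% against 61.2% in NK and 37.7% against 60.6% in ILC1_ILC3. These rows stated a higher average in fewer positive cells. The difference of -21.1 points in NK was the lowest of 197 genes listed there, and that of -22.9 points in ILC1_ILC3 the lowest of 225. A smaller share inside was found in 11.2% of all NK rows, 2.67% of ILC1_ILC3 rows and 57.1% of CD8_Naive rows. *Ms4a4b* and *Ms4a4c* were both listed for CD8_Naive and NK. In NK, *Ms4a4b* was above all other cells by 13.0 points.

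*Ms4a6c* was listed for 5 types. The share was 65.9% in the type named Macrophage against 47.3% outside, and 57.3% in basophils against 48.0%. These differences of 18.6 and 9.3 points ranked low, at 279 of 291 genes listed for the first type and 234 of 275 for basophils. The share of *Ms4a6c* was smaller inside in MMP_LMPP, at 40.7% against 48.2%, in CD8_Effector, at 23.2% against 48.3%, and in CD4, at 22.5% against 49.0%. In CD4 and CD8_Effector a smaller share inside was common, in 76.3% and 60.6% of all rows, but in MMP_LMPP it was found in 0.993%. *Ms4a6b* was above the other cells in both T cell types where *Ms4a6c* was below, by 11.7 points in CD4 and 11.8 points in CD8_Effector. Over all sorted cells the share was 60.4% for *Ms4a4c* and 48.1% for *Ms4a6c*.

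Of the 26 MS4A rows in the cell type table, 6 (23.1%) had a smaller share inside than outside, against 16.3% of all rows in that table. All 6 belonged to *Ms4a4c* and *Ms4a6c*. Of the 6 members, 4 were each listed for 2 or more types, as were 62.2% of all genes in the table. Together the members had a row for 14 of the 21 types, with 1 member in 5 types, 2 in 6 types and 3 in CD4, CD8_Effector and CD8_Naive. Of all genes in the table, 7.80% had a row for CD4, 5.60% for CD8_Effector and 11.8% for CD8_Naive. No member was listed for ILC2, ILC2_2, ILC3, the type spelled Prolifelation cell, gdT_TypeII, gdT_TypeIII_CD163l1 or Endothelium cell. These types listed between 1.67% of all genes (gdT_TypeII) and 30.6% (Prolifelation cell), with 8.10% for ILC2, and nothing about the family is read from the count of 0.

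Of 8 myeloid genes chosen as partners of *Ms4a6c* and *Ms4a7*, 4 had a row for the type named Macrophage, a row held by 17.3% of all genes. *Lyz2*, the myeloid lysozyme, was found in 98.5% of its cells against 42.3%, and *Cd68*, a lysosomal protein of phagocytes, in 94.6% against 43.0%. *Apoe*, a lipid carrier made by macrophages, was found in 75.4% against 27.6%, below its 80.0% in the type named Plasma cell, and the LPS coreceptor *Cd14* in 60.8% against 32.0%. *C1qa*, *C1qb*, *C1qc* and *Csf1r* had no row. Of 8 macrophage markers 3 were listed for the type, and 4 of 8 markers of plasma cells and the B lineage were listed for it too (*Cd79b*, *Ighm*, *Mzb1* and *Xbp1*). The name of this type therefore rests on few markers. In basophils, the other type with a larger share of *Ms4a6c* inside, *Cd14* was found in 85.7% against 32.8% and *Apoe* in 28.1% against 29.8%.

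Within ILC2s, only *Ms4a4b* and *Ms4a6b* were listed. *Ms4a4b* was found in 49.6% of subcluster 5 against 10.2% of other ILC2s, a ratio of 4.86, and in 25.6% of subcluster 4 against 10.3%, a ratio of 2.49. The difference in subcluster 4, 15.3 points, ranked 726 of the 802 genes listed there. Both subclusters held 13.1% of ILC2s and 36.6% of those positive for *Ms4a4b*. Over all ILC2s the share was 11.7% (SD 0.0098 points over 2 estimates), and over the subclusters with no row the mean was 8.56%. In subcluster 0, the largest of these, it lay between 0% and 27.2%.

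*Ms4a6b* was found in 52.2% of subcluster 1 against 17.3% of other ILC2s, a ratio of 3.02. It was found in 42.7% of subcluster 8 against 24.2%, and in 34.0% of subcluster 5 against 23.9%. Subcluster 1 alone held 20.1% ± 0.017 (SE of the fit) of ILC2s and 43.1% of those positive for *Ms4a6b*, and the subclusters with no row had a mean of 16.2%. Subclusters 1 and 8 both listed *Il13* and *Klrg1*, a cytokine and a surface receptor of ILC2s. So did subcluster 2, which had no MS4A row. *Il13* was also listed for subclusters 4 and 7, and *Klrg1* for subcluster 6. Subcluster 4 listed 4 of 4 proliferation markers. The 2 genes shared subcluster 5 alone, 1 of 2 for *Ms4a4b* and 1 of 3 for *Ms4a6b*. Each of the 2 genes was listed for 2 or more subclusters, as were 29.2% of all genes, and 0 of their 5 rows had a smaller share inside, against 29.4% of all rows in that table. Outside subcluster 5, which held 978 of the 1102 such rows, the share was 4.52%, and 3 of the 5 MS4A rows lay there.

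**Figure D2:**
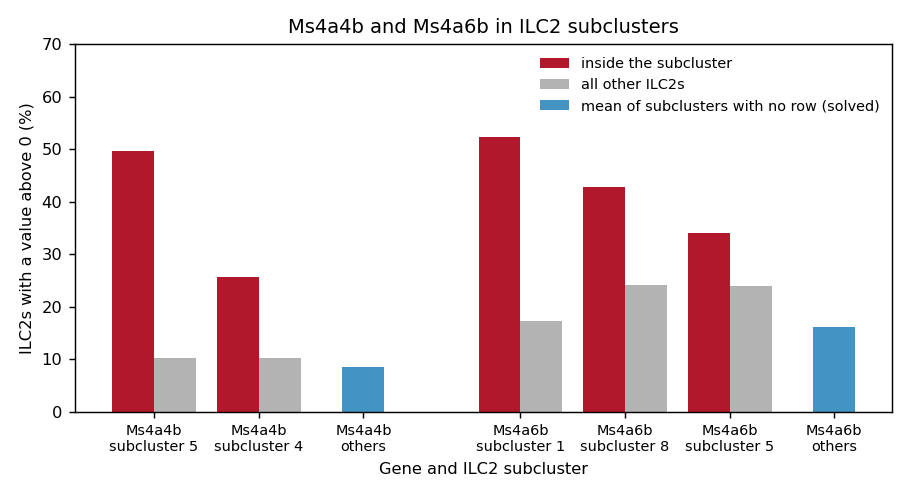
Percentage of ILC2s with a value above 0 for *Ms4a4b* and *Ms4a6b* (y axis) by subcluster (x axis). Red bars are the subcluster, grey bars all other ILC2s and blue bars the solved mean of subclusters with no row; *Ms4a4b* was highest in subcluster 5 at 49.6% and *Ms4a6b* in subcluster 1 at 52.2%.

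Subcluster 5 made up 3.87% ± 0.0096 of ILC2s and stood apart in its rows. It listed 1000 genes, or 38.0% of all genes in the table, and 978 of them were found in fewer cells inside than outside, with a median difference of -21.3 points. Both MS4A genes were among the 22 that were found in more cells inside. The difference of 39.4 points for *Ms4a4b* ranked 1 of 1000, and that of 10.1 points for *Ms4a6b* ranked 11. The other 20 were *Cd28*, *Cd3e*, *Cd3g*, *Ctsw*, *Cxcr3*, *Egr1*, *Gimap4*, *Hspa1a*, *Hspa1b*, *Il18r1*, *Lck*, *Lncpint*, *Lpar6*, *Lyst*, *Nkg7*, *Rhob*, *Samd9l*, *Satb1*, *Trdc* and *Txk*. They held genes of the T cell receptor and its signalling, such as *Cd3e* and *Lck*, and also heat shock and immediate early genes, such as *Hspa1a* and *Egr1*. *Cd3e* was found in 32.0% of subcluster 5 against 4.7%, *Cd28* in 26.8% against 4.7%, *Cd3g* in 39.5% against 32.6% and *Trbc1*, in the other direction, in 45.0% against 81.0%. Of 7 T cell markers 4 were listed for the subcluster and, of 8 ILC2 markers, none, although its cells had been kept as ILC2s. Whether its MS4A shares belong to ILC2s or to T cells in it was not tested.

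**Figure D3:**
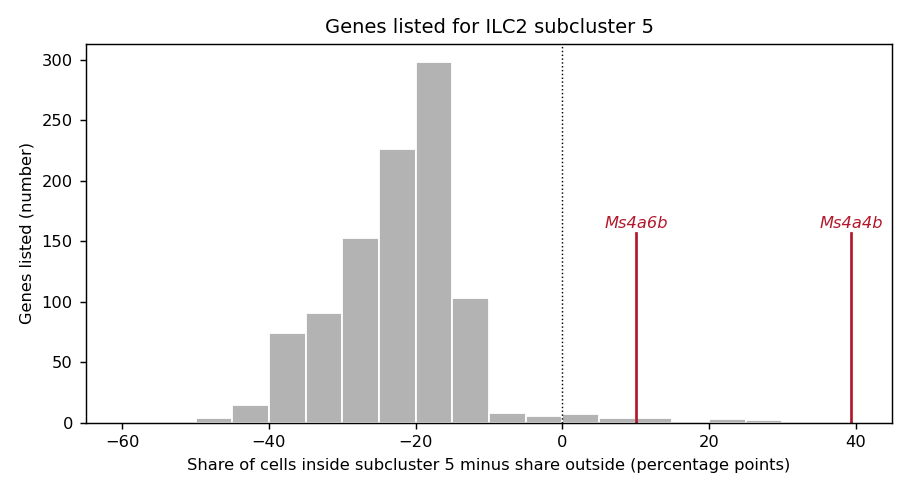
Number of genes listed for ILC2 subcluster 5 (y axis) by the share of cells inside minus the share outside, in percentage points (x axis, bins of 5 points). Red lines mark *Ms4a4b* at 39.4 and *Ms4a6b* at 10.1 points, to the right of 0, whereas 978 of 1000 genes lay to the left.

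Of the T cell and naive lymphocyte list, *Tcf7* and *Lef1* were listed for subcluster 1, as was *Ms4a6b*, at 51.8% against 18.9% and 37.8% against 19.8%. *Tcf7* was also listed for subcluster 7, *Cd3g* for 6, *Il7r* for 9 and *Ltb* for 0, 8 and 9. Of the 9 genes, 6 had a row in this table, in 10 rows.

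Of 10 further genes, 8 other *Ms4a* genes and the related *Tmem176a* and *Tmem176b*, only the last 2 had a row. Both encode membrane proteins of the same wider family. Both were listed for ILC2, which had a row for 8.10% of all genes, with *Tmem176a* in 94.8% of ILC2 cells against 53.7% and *Tmem176b* in 96.3% against 57.9%. ILC1_ILC3, where *Ms4a4c* was lower than outside, had *Tmem176a* in 99.5% against 71.3% and *Tmem176b* in 100% against 74.4%. Among ILC2s they were listed for subcluster 0, which listed no member, at 78.0% against 42.9% and 84.3% against 48.1%. Their types also overlapped with those of the members. In ILC1, which listed *Ms4a4b*, *Tmem176a* was found in 81.6% against 70.9% and *Tmem176b* in 88.3% against 73.8%. In gdT_TypeIII_ITGAE, which listed *Ms4a6b*, they were found in 96.4% against 71.1% and 96.7% against 74.2%. Both were further listed for ILC3 and gdT_TypeIII_CD163l1 and for subcluster 3, and *Tmem176a* for Endothelium cell and subcluster 9.

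The genes most like each member were taken from the Jaccard index, the number of clusters that listed both genes over the number that listed either. Ties were ordered by how far apart the differences in share of both genes lay in the shared clusters. Among the 21 cell types, *Gimap4* and *Cd2* were most like *Ms4a4b* (index 0.889), followed by *Cd28* (0.875). *Trbc2* (0.875), *Cd3d* and *Klf2* (0.778 each) were most like *Ms4a6b*. *Cxcr5*, a chemokine receptor of follicular lymphocytes, was most like *Ms4a4c* (0.75), although the differences in share of both genes lay 36.7 points apart on average. For *Ms4a6c*, 4 genes shared the highest index of 0.6, led by *Pmaip1*, *Ogfrl1* and *Lst1*. An index of 1 was shared by 59 genes for *Ms4a2*, led by *Cyp11a1*, *Mcpt8* and *Il6*, and by 17 genes for *Ms4a1*, led by *Fcmr*, *Iglc2* and *Scd1*. Among the 10 subclusters, 18 genes led by *Lck*, *Il2rb* and *Hsph1* had the same subclusters as *Ms4a4b*, and 10 led by *Itgb1*, *Mxd1* and *Crybg1* had those of *Ms4a6b*. In subcluster 5 *Lck* was found in 27.8% against 16.8%, above the other ILC2s like the members, whereas the other 5 were below, from *Il2rb* at 37.1% against 39.1% to *Crybg1* at 13.8% against 39.7%.

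Identical reads of close relatives could come from short stretches of their protein-coding transcripts only. The longest exact run in common was 127 bases for *Ms4a4b* and *Ms4a4c*, 112 for *Ms4a2* and *Ms4a4b* and 96 for *Ms4a6b* and *Ms4a6c*, where a read had 89 bases. Where these runs lay in the transcripts was not examined. The last 500 bases of the longest protein-coding transcript of each gene were aligned from end to end. They were 43.4% to 49.5% identical in every pair of the 7 members. Libraries of the 3′ kit are read from transcript ends, and other ends of the same genes were not aligned. The effect of shared reads on the shares of cells was not tested.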

How the data were processed

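The libraries were made with a 3′ droplet kit and processed by the authors with Cell Ranger on mm10. The authors used flow cytometry to remove doublets and dead cells, and no doublet caller could be run on tables without single cells. Cells with few detected genes were excluded, counts were scaled per cell and log transformed, and clusters, cell type names and marker lists were made by the authors in Seurat from the 4 libraries together. The columns used here were the deposited fractions of cells with a value above 0, inside a cluster and in all other cells, printed as percentages. The other deposited columns hold the authors' log2 fold changes and their raw and adjusted p-values over cells, from Seurat's FindAllMarkers with a test not given in the sources used here. They were not used, so rows are described whether or not they passed those p-values, and 0 rows had a fold change below 0. There were 0 further columns of values per sample.

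Cluster sizes were solved by least squares (numpy 2.4.6, pandas 2.3.3) over 1045 and 768 genes listed for at least 2 clusters, because the share outside plus the size times the difference gives the same share of all cells from every listing cluster. They summed to 100.1% and 100.2%, with residuals of 0.000275 and 0.000266 against an SD of 0.000289 from rounding. The solver was tested on simulated data. From the sizes followed the share in all cells, the mean over clusters with no row, and bounds for the largest such cluster. These errors cover rounding and not variation between mice. Gene positions came from GENCODE on GRCm38 and upstream sequences from RefSeq.

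The members, the marker lists and the lists of partner genes were chosen with earlier results of these data known. Every member was named, and from the lists genes listed for a type of their member. Some list genes are counted and not reported by name here. The genes of subcluster 5 that stand beside the MS4A genes were chosen after their values were seen. Alternatives were stricter definitions of a listing, sizes from genes listed for at least 3 clusters, sizes divided by their sum, and the value from the largest listing cluster alone.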

Additional observations from a re-analysis of the deposited data

How the results depend on the processing

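Counting only rows with a larger share inside than outside left 1 type for *Ms4a4c* (4 before) and 2 for *Ms4a6c* (5 before), and a share at least 10 points above the outside left 0 and 1. These follow from the stricter definition. Over all members, 12 of 16 such alternative counts stayed within 1.5 times their value. The 8 shares in all cells, 8 means over clusters with no row and 18 sizes had 24, 24 and 36 alternative values, which moved by at most 0.04, 0.06 and 0.03 percentage points, when sizes came from genes listed for at least 3 clusters, were divided by their sum, or, for the shares and means, when the largest listing cluster alone was used. No replicate could be left out. No paired analysis was possible because all libraries are pooled in every value. The tables gave no depth and no numbers of cells, and values of small clusters, such as subcluster 8 with 0.668% of ILC2s, rest on few cells.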
